A study of Mus musculus with 52 samples.

Results

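Oxidative and metal stress were followed here through 10 genes out of the 23697 listed in each of 6 tables of mouse spinal cord expression. They are 7 targets of the transcription factor NRF2 (Hmox1, Nqo1, Gclc, Gclm, Srxn1, Txnrd1 and G6pdx) and the 3 metallothioneins Mt1, Mt2 and Mt3. The genes were picked by symbol, each symbol matched 1 row in every table, and all 10 passed the filter on low values in every table. The mice carried a mutant human SOD1 transgene, which encodes a copper and zinc superoxide dismutase and is used to model amyotrophic lateral sclerosis, and Non-Tg mice served as controls. Ribosome-bound mRNA had been captured through EGFP-tagged RPL10A from reporter mice that label 1 cell type, so controls carry a reporter too, and poly(A) libraries were read as 50 nt single ends. At the stage labelled Onset there were 4 SOD1 G37R and 4 Non-Tg motor neuron libraries, and 4 SOD1 G37R and 6 Non-Tg astrocyte libraries, with no age in the labels. Onset oligodendrocytes and spinal cord were labelled 8 months, with 4 SOD1 G37R and 5 Non-Tg oligodendrocyte libraries and 4 SOD1 G37R and 4 Non-Tg spinal cord libraries. The early symptomatic stage was labelled 11 months and held 3 SOD1 G85R, 3 SOD1 G37R and 5 Non-Tg oligodendrocyte libraries, and 3 SOD1 G37R and 3 Non-Tg spinal cord libraries. All onset libraries were male, while the 11-month groups held 1 or 2 males each and were otherwise female. The driver of each reporter is not given in the sources used here, and the labels give the same GFP capture text for the spinal cord libraries as for the purified cells. The labels do not tie libraries to individual mice, so every p-value here reflects only variation among these libraries, which may in part be technical.

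NRF2 is held in the cytosol and marked for destruction by KEAP1, and oxidants or electrophiles release it to act with small MAF proteins at antioxidant response elements. Its targets make glutathione (Gclc and Gclm, the catalytic and modifier subunits of glutamate-cysteine ligase), keep thioredoxin and peroxiredoxin reduced (Txnrd1, thioredoxin reductase, and Srxn1, sulfiredoxin), supply NADPH (G6pdx, glucose-6-phosphate dehydrogenase), reduce quinones (Nqo1) and break down heme (Hmox1, heme oxygenase). Metallothioneins are small cysteine-rich proteins that bind zinc and copper. Mt1 and Mt2 are induced by metals through the factor MTF1 at metal response elements and by glucocorticoids, and in the nervous system they are known chiefly from astrocytes, whereas Mt3 was described as the brain form and as poorly inducible.

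The metallothionein genes are neighbours on the deposited mm9 coordinates, with Mt3 at chr8:96676506-96678048, Mt2 at chr8:96696517-96697467 and Mt1 at chr8:96702988-96704227, all within 27.7 kb. Gclc lies at chr9:77602341-77642296, Gclm at chr3:121948509-121969566, Srxn1 at chr2:151931465-151937089, Txnrd1 at chr10:82296695-82360469 and G6pdx at chrX:71654824-71674500. Hmox1 at chr8:77617516-77624492 and Nqo1 at chr8:109912124-109927105 share a chromosome with the metallothioneins. RefSeq promoters on GRCm38.p6, from 250 bases before to 50 bases after the start, were held for 8 of the 10 genes. The antioxidant response element was searched as TGACNNNGC and the core of the metal response element as TGCACNC or TGCGCNC, on both strands, and matches of the 2 motifs overlapped in Gclm alone. The 4 promoters printed here are those of the 3 neighbouring metallothioneins and of G6pdx, an NRF2 target that passed the test in 2 tables. Capitals mark the matches of either motif, and the sequences run 5′ to 3′ on the strand of the gene. The 4 promoters lie at chr8:94178839-94179138 on the plus strand for Mt1, chr8:94172368-94172667 on the plus strand for Mt2, chr8:94152357-94152656 on the plus strand for Mt3 and chrX:74428831-74429130 on the minus strand for G6pdx.
Mt1: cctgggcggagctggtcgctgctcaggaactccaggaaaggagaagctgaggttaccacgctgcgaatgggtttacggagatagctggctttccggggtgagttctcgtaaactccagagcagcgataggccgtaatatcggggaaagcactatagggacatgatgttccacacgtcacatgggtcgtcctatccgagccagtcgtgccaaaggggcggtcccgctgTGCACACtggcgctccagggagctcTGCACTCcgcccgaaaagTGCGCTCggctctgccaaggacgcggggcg
Mt2: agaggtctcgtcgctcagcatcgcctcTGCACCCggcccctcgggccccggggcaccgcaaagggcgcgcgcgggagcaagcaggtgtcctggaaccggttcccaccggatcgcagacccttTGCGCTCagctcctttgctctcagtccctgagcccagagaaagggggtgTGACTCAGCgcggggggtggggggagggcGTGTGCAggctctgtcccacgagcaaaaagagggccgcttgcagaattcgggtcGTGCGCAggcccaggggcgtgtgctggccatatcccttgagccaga
Mt3: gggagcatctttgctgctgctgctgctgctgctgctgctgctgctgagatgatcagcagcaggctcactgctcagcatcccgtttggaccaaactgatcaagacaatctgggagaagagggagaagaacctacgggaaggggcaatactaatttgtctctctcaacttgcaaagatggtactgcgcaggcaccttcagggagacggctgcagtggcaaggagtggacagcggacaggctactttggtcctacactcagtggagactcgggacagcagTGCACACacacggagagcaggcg
G6pdx: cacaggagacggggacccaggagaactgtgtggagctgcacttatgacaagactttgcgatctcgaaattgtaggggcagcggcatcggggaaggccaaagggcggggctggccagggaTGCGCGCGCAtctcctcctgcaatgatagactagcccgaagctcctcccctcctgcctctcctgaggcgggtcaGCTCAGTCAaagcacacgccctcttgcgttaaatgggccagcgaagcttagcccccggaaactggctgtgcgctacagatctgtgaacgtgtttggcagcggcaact

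The Mt1 promoter held 3 metal response cores and the Mt2 promoter 4, against 1 in the Mt3 promoter. Of all 32851 RefSeq promoters of this length, 25.7% held at least 1 such core, 1.969% held 3 or more and 0.5175% held 4 or more. An antioxidant response element, present in 12.39% of all promoters, was matched in Mt2, Gclm, Srxn1, G6pdx and 1 of the 3 Txnrd1 start sites, and its letters were not in the windows of Mt1, Mt3 and Nqo1. Gclm also held 3 metal response cores, G6pdx 2 and Srxn1 1. These matches describe letters in a window and not sites in use, and their numbers were not tested against expression. Sequence outside the windows was not searched, so a motif missing from a window may lie just beyond it.

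**Figure D1:**
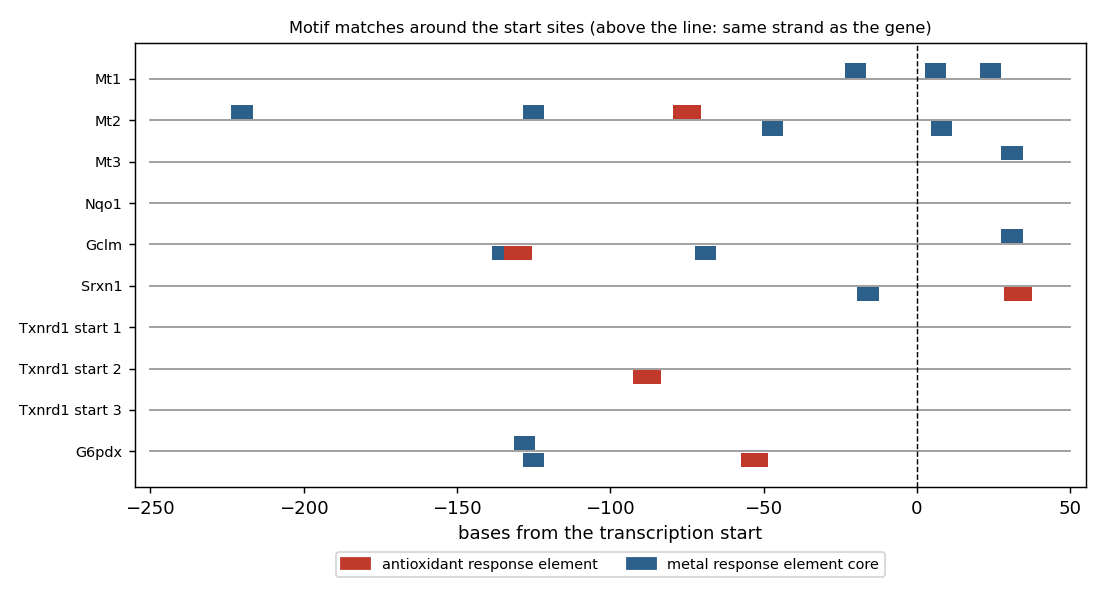
Motif matches around the start sites of the 8 genes with a RefSeq promoter, with distance from the transcription start in bases on the horizontal axis and 1 line per start site. Blue blocks are metal response element cores and red blocks antioxidant response elements, drawn above the line where they lie on the strand of the gene; Mt2 has 4 blue blocks and 1 red, Mt1 3 blue and Mt3 1 blue.

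Levels are given in FPKM-equivalents, fragments per kilobase of transcript scaled to library size, as mean ± SD over libraries. Each table was normalized on its own, and 5 tables were rescaled by 1 factor, so levels set across cell types are descriptions with no test. Markers of each purified cell type were highest in the libraries labelled so, but markers of other cells were present too. The sum of 7 motor neuron markers was 1952 to 2564 in motor neuron libraries and at most 120 in the other purified cells. The sum of 9 oligodendrocyte markers was 17089 to 40479 in oligodendrocyte libraries, the lowest in 11-month control 1, where 2 of the 9 were listed at 0. Astrocyte libraries held 14948 to 21137 for 10 astrocyte markers, against 3376 to 5297 in spinal cord. Oligodendrocyte libraries held 4032 to 5397 for the same astrocyte markers, about as much as spinal cord. Astrocyte libraries held 6328 to 10256 for the oligodendrocyte markers. Levels in the purified glia may thus include RNA of other cells, and its part was not tested. Microglial markers, 13 in number, are given beside the results they move with, and the libraries with any of them listed at 0 were 4 at 11 months in oligodendrocytes, with 1 marker each. At 11 months 2 libraries stood apart by these markers: G85R oligodendrocyte library 1 summed to 528, against 55.3 and 85.9 in the other 2 of its group, and control spinal cord library 1 summed to 2219, against 678 and 606 in the other 2 controls and 674 to 1873 in the G37R libraries. Both are the male library of their group.

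Metallothionein transcripts were the most abundant of the 10 genes in astrocytes, by a wide margin. In control astrocytes Mt1 averaged 16053 ± 2684, Mt2 9569 ± 1401 and Mt3 10934 ± 1535 (SD, n = 6). Mt1 ranked the second most abundant of all genes in each of the 6 control astrocyte libraries, Mt3 the third and Mt2 the fourth, and the 3 together made up 4.27% to 5.72% of the summed values. In control motor neurons Mt3 led instead, with Mt3 at 2351 ± 131, Mt1 at 279 ± 54.4 and Mt2 at 148 ± 35.2 (n = 4). Oligodendrocytes of 8-month controls had 821 ± 189 for Mt1, 203 ± 27.0 for Mt3 and 131 ± 37.5 for Mt2 (n = 5), and there Mt3 and Mt2 lay close together. Relative to 8-month control spinal cord (n = 4), control astrocytes had 16.8 times as much Mt1, 18.4 times as much Mt2 and 11.8 times as much Mt3. Control motor neurons had 0.292, 0.284 and 2.54 times the spinal cord level of Mt1, Mt2 and Mt3. For 8-month control oligodendrocytes these ratios were 0.860, 0.253 and 0.219. Their astrocyte markers summed to 4032 to 4461, beside 3447 to 4006 in 8-month control spinal cord. How much astrocyte RNA the oligodendrocyte libraries held was not tested.

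Proportions within the family differed between cell types as well. The ratio of Mt3 to Mt1 averaged 8.61 in control motor neurons, 0.684 in control astrocytes and 0.254 in 8-month control oligodendrocytes. Mt2 stood at 0.598 of Mt1 in control astrocytes and at 0.525 in control motor neurons, against 0.159 in 8-month and 0.167 in 11-month control oligodendrocytes. Mt1, Mt2 and Mt3 are close paralogs, and how reads that match more than 1 of them were shared is not given in the sources used here, so their ratios carry that uncertainty.

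The NRF2 targets had other patterns over cell types. Srxn1 was led by motor neurons, with 213 ± 10.4 in control motor neurons (n = 4), 70.6 ± 5.96 in control astrocytes (n = 6) and 48.1 ± 4.36 in 8-month control oligodendrocytes (n = 5). Gclm (141 ± 7.71, 73.2 ± 2.85 and 79.8 ± 3.50) and Txnrd1 (78.5 ± 5.92, 48.0 ± 3.68 and 40.3 ± 2.91) were also highest in motor neurons. Control astrocyte and 8-month oligodendrocyte libraries overlapped in Gclm, while in Txnrd1 the lowest astrocyte library (42.8) lay just above the highest oligodendrocyte library (42.7). Nqo1 ran the other way, at 5.93 ± 0.491 in control motor neurons, 48.0 ± 2.64 in control astrocytes and 26.8 ± 1.87 in 8-month control oligodendrocytes. G6pdx was low in motor neurons (22.3 ± 2.09) and close together in astrocytes (64.5 ± 6.26) and oligodendrocytes (68.4 ± 4.55), whose libraries overlapped. Gclc spanned the narrowest range of the NRF2 targets over these cells in fold terms, from 17.6 ± 0.470 in control motor neurons to 32.2 ± 3.28 in control astrocytes. Hmox1 was the lowest of the 10 genes in 12 of the 13 groups, at 4.51 ± 0.784 in control motor neurons, 18.5 ± 2.78 in control astrocytes and 7.81 ± 0.676 in 8-month control oligodendrocytes.

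**Figure D2:**
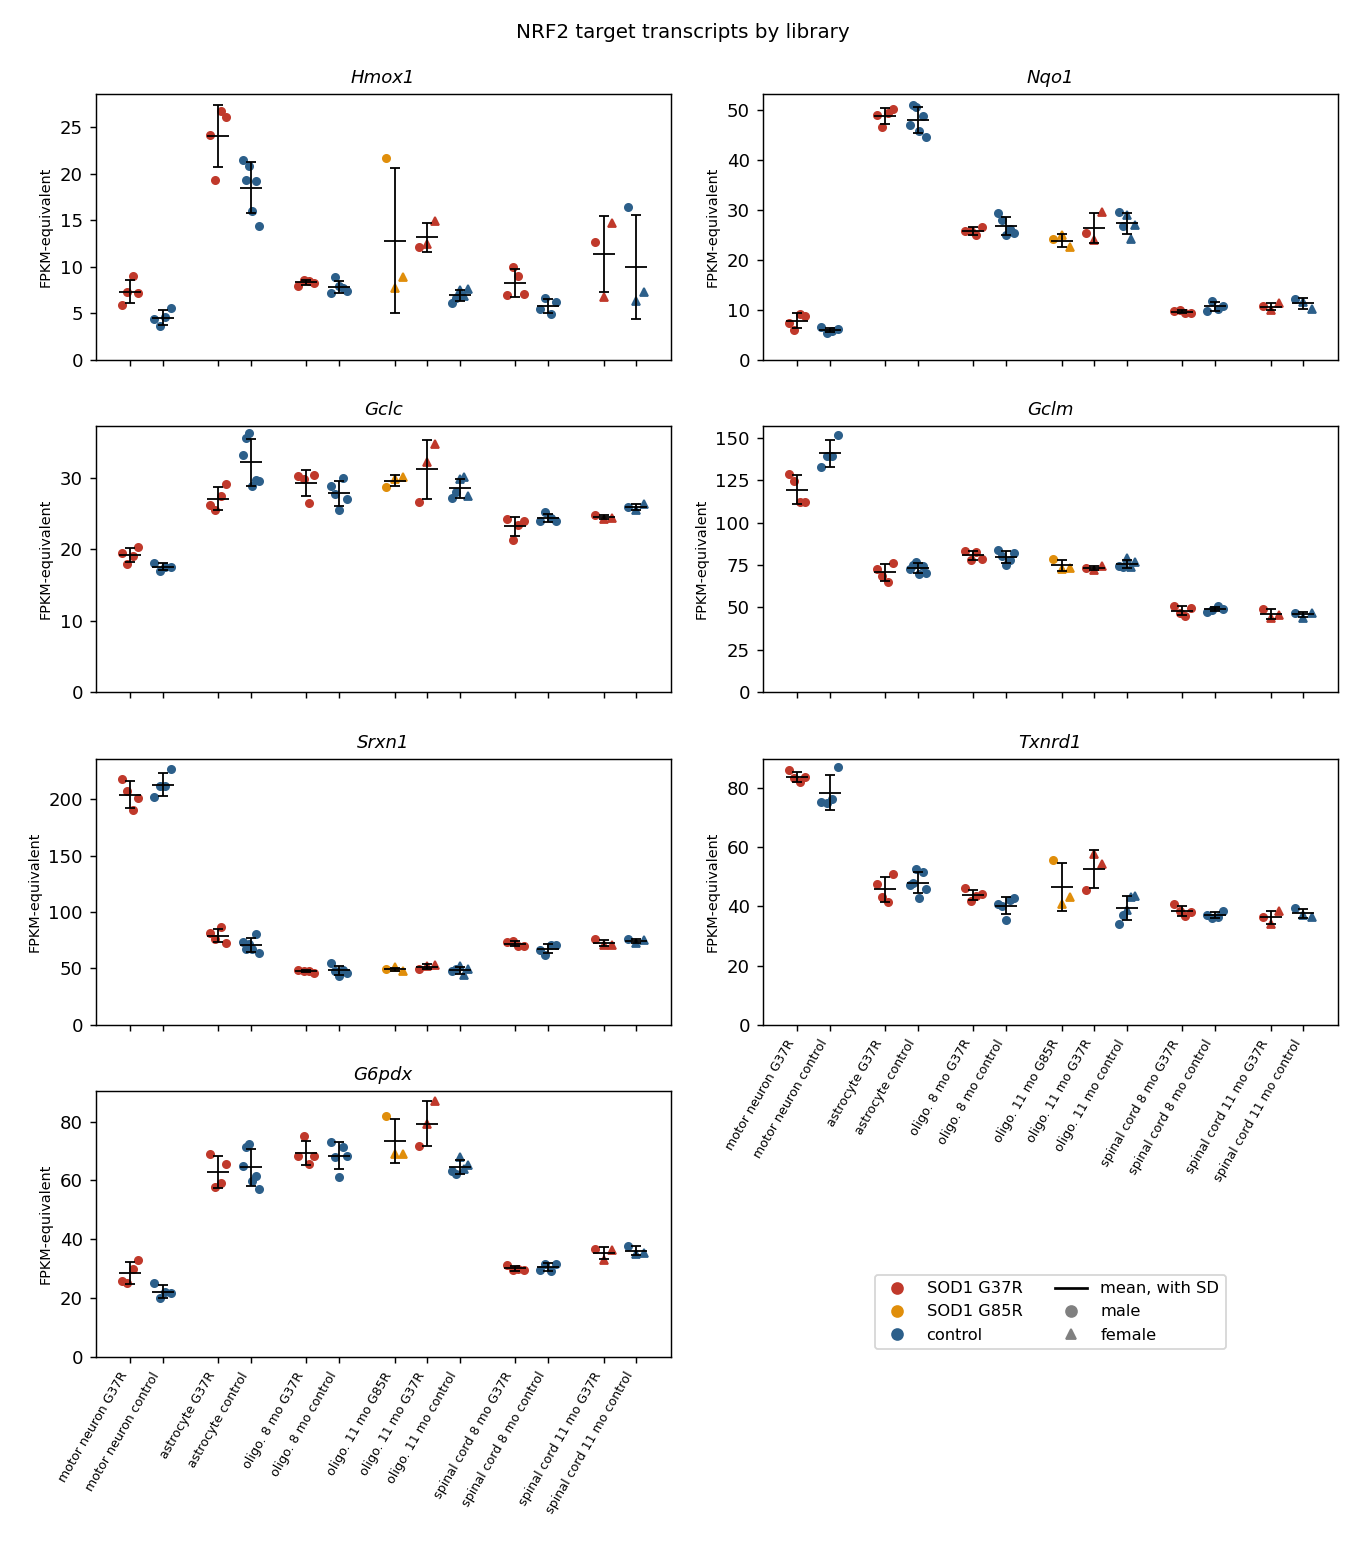
Levels of the 7 NRF2 targets in FPKM-equivalents (vertical axes from 0), 1 point per library, circles male and triangles female, with group mean and SD in black and mutant groups left of their controls. Srxn1, Gclm and Txnrd1 are highest in motor neurons and Nqo1 in astrocytes. Hmox1 passed the test between mutant and control libraries only in motor neurons and in 11-month G37R oligodendrocytes.

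Mt1 and Mt2 rose in astrocytes of SOD1 G37R mice at onset, while no NRF2 target passed the test there. Mt1 had 39254, 28815, 35655 and 27004 in the 4 G37R libraries, against 15047, 14024, 13498, 15742, 20854 and 17156 in the 6 controls. All 4 G37R libraries lay above all 6 controls, and the log2 change was 1.02 (SE 0.17, limma adjusted p = 0.0102). Mt2 had 23648, 19907, 25249 and 17748 in G37R astrocytes, against a lowest of 8319, a median of 9010 and a highest of 11936 in controls. Again the groups did not overlap, with a log2 change of 1.18 (SE 0.16, adjusted p = 0.00278). Mt3 averaged 16072 ± 3386 in G37R and 10934 ± 1535 in control astrocytes; its libraries overlapped, and it missed the threshold (0.54, SE 0.17, adjusted p = 0.128). Mt1 became the most abundant transcript in some G37R libraries, where it ranked first or second, and the 3 genes together took 7.62% to 9.30% of the summed values.

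Among the 7 NRF2 targets in astrocytes, none was called by limma, and 2 had an unadjusted p under 0.05. Hmox1 averaged 24.1 ± 3.33 in G37R (n = 4) and 18.5 ± 2.78 in control astrocytes (n = 6), a log2 difference of 0.37 (95% interval 0.10 to 0.63, adjusted p = 0.157). Gclc was 27.1 ± 1.63 in G37R and 32.2 ± 3.28 in control astrocytes (-0.24, 95% interval -0.42 to -0.06, adjusted p = 0.172). Nqo1, Gclm, Srxn1, Txnrd1 and G6pdx had log2 differences between -0.07 and 0.16. In all, 2 of the 10 genes were called in astrocytes, beside 2.33% of the 12463 genes tested, and 2 were without overlap and higher, beside 2.44% of genes. The median log2 change of the 10 genes was 0.09, against -0.00 for all genes tested. Microglial markers summed to 133 to 167 in G37R and 44.8 to 72.4 in control astrocytes, and 9 of the 12 tested rose, while astrocyte markers summed to 17861 to 21137 in G37R and 14948 to 17496 in control libraries. Their part in the result was not tested. In bulk samples like these, more RNA per cell and a larger number of cells of a type cannot be told apart.

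Spinal cord at 8 months gave the same 2 calls. Mt1 had 1510, 1863, 1833 and 1472 in the 4 G37R libraries, against 815, 971, 1087 and 945 in the 4 controls, with no overlap (0.81, SE 0.11, adjusted p = 0.00938). Mt2 had 834, 1179, 1084 and 926 in G37R, against 421, 490, 675 and 493 in control libraries, also with no overlap (0.96, SE 0.16, adjusted p = 0.0337). The call of Mt2 depended on single libraries, since leaving out any 1 of controls 1, 2 and 4 or G37R libraries 2, 3 and 4 gave adjusted p values of 0.0745 to 0.109. Mt3 was 1081 ± 72.2 in G37R and 925 ± 76.6 in control spinal cord (0.23, adjusted p = 0.139). Hmox1 had 6.94, 9.94, 8.99 and 7.09 in G37R, against 5.46, 6.64, 4.95 and 6.14 in controls; the groups did not overlap, but the difference missed the threshold (0.44, SE 0.12, adjusted p = 0.123). The other 6 NRF2 targets had log2 differences between -0.14 and 0.10, none past the threshold. Of all 13825 genes 2.17% were called, and 4.92% were higher without overlap, as were 3 of the 10 genes. Beside these values, microglial markers summed to 700 to 1078 in G37R and 404 to 496 in control spinal cord, 8 of the 13 tested having risen, and astrocyte markers to 4072 to 4697 in G37R and 3447 to 4006 in controls; their part was not tested.

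**Figure D3:**
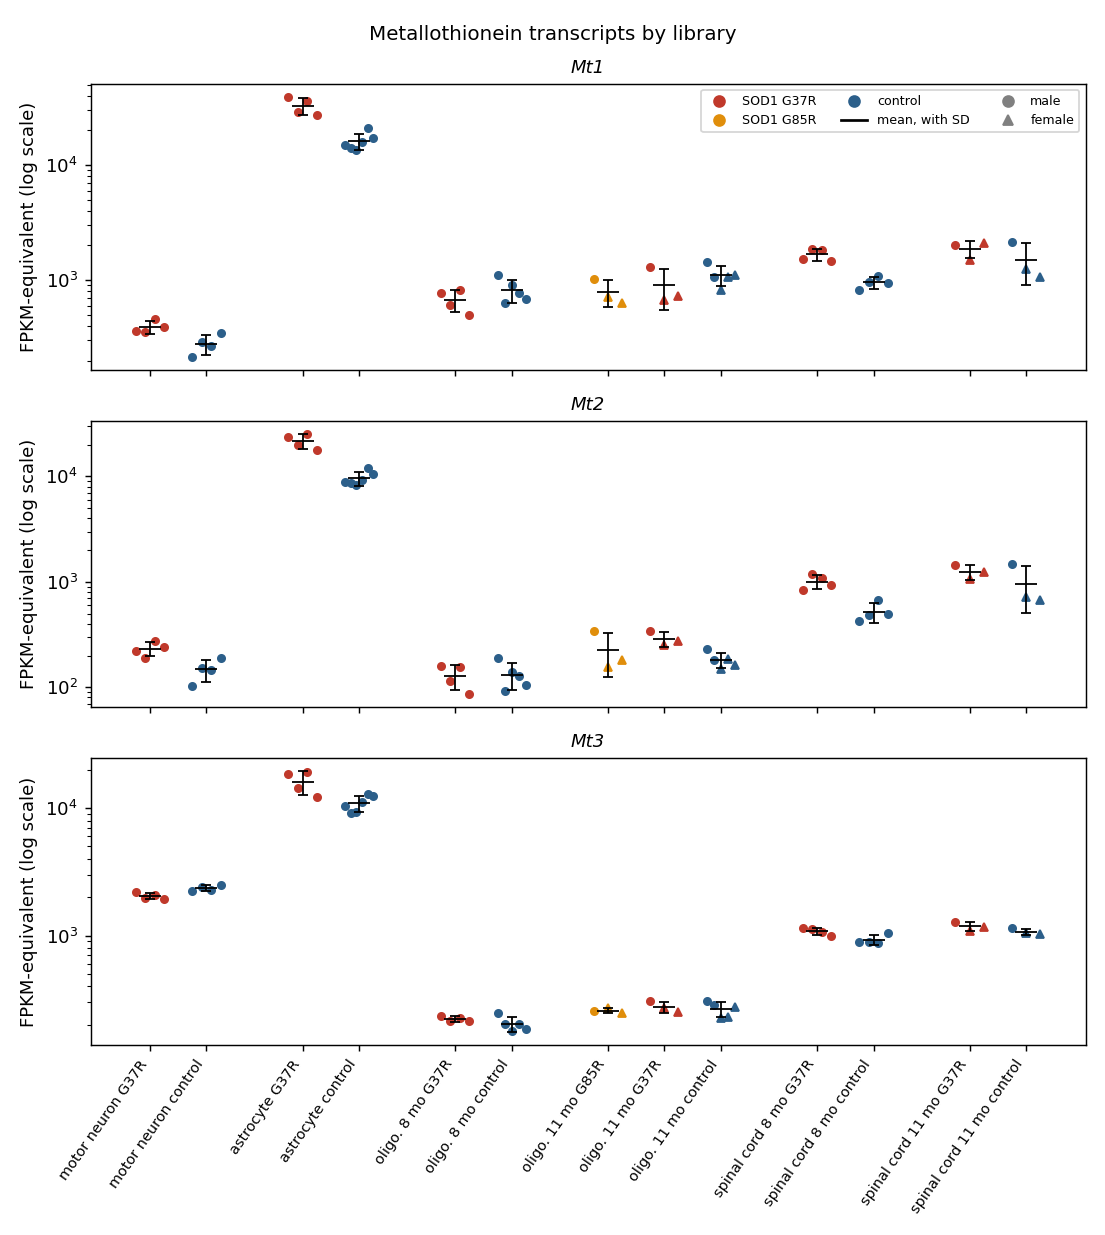
Mt1, Mt2 and Mt3 in FPKM-equivalents on log axes, 1 point per library, circles male and triangles female, with group mean and SD in black and mutant groups left of their controls. G37R astrocytes and G37R 8-month spinal cord lie above their controls in Mt1 and Mt2, and Mt3 is far above Mt1 in motor neurons only.

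In motor neurons at onset Hmox1 and G6pdx rose in G37R libraries, and Gclm and Mt3 fell. Hmox1 had 5.83, 7.26, 8.96 and 7.21 in the 4 G37R libraries, against 4.38, 3.60, 4.55 and 5.51 in the 4 controls, and it rose with no overlap (0.59, SE 0.13, adjusted p = 0.0195). G6pdx had 25.8, 25.2, 30.0 and 33.2 in G37R, against 25.1, 20.1, 22.1 and 21.9 in controls, and also rose (0.34, SE 0.09, adjusted p = 0.0397), the lowest G37R library lying just above the highest control. Gclm fell, with 129, 125, 112 and 112 in G37R, against 133, 139, 139 and 151 in control motor neurons (-0.24, SE 0.06, adjusted p = 0.0347). Mt3 fell as well, with 2180, 1980, 2071 and 1939 in G37R, against 2231, 2400, 2262 and 2513 in controls (-0.20, SE 0.06, adjusted p = 0.0449). All 4 of these genes were without overlap between the groups.

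Mt1 and Mt2 were also higher in every G37R motor neuron library than in any control, but neither passed the threshold. Mt1 had 358, 354, 464 and 388 in G37R, against 215, 287, 268 and 346 in control motor neurons (0.50, 95% interval 0.16 to 0.83, adjusted p = 0.0572). Mt2 had 220, 191, 274 and 244 in G37R, against 103, 152, 145 and 189 in controls (0.67, 95% interval 0.22 to 1.12, adjusted p = 0.0600). Nqo1 was 7.77 ± 1.49 in G37R and 5.93 ± 0.491 in control motor neurons (0.33, adjusted p = 0.0795), and Gclc, Srxn1 and Txnrd1 had log2 differences of 0.12, -0.06 and 0.10, none past the threshold. The count of 4 genes called out of 10 stands beside 12.9% of the 12301 genes tested. The 4 higher and 2 lower genes without overlap stand beside 11.4% and 10% of genes. The median log2 change of the 10 genes was 0.22, against 0.01 for all genes.

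The motor neuron calls depended on single libraries of both groups. Hmox1 missed the threshold without control 2, control 3 or G37R 4 (adjusted p 0.0516 to 0.0589). Gclm and G6pdx missed it without any 1 of controls 2, 3 and 4 or G37R 3 and 4, and Mt3 without any library but G37R 1 (adjusted p 0.0537 to 0.121 over the 3 genes). Without G37R 3 and 4 together, an alternative chosen after seeing the data that leaves 2 G37R libraries, none of the 10 genes passed, with Hmox1 at 0.46 (adjusted p = 0.101). With no minimum level, which put more genes under test, Gclm, G6pdx and Mt3 also missed it (0.0572 to 0.0693). Markers of other cells moved with these libraries. Microglial markers summed to 29.2, 28.3, 59.6 and 66.8 in G37R, against 14.1, 10.3, 9.46 and 9.17 in control motor neurons, and 8 of the 8 tested rose. Astrocyte markers summed to 850 to 1524 in G37R and 598 to 729 in control motor neurons, and 1 of the 10 tested rose. Oligodendrocyte markers summed to 586 to 1019 in G37R and 465 to 519 in controls (1 of 9 rose), and interneuron markers to 187 to 287 in G37R and 161 to 183 in controls (2 of 7 rose). Motor neuron markers, whose groups overlapped, summed to 1952 to 2384 in G37R and 2190 to 2564 in controls, and 2 of the 7 fell. In control cells Mt1, Mt2 and Mt3 were highest in astrocytes. Mt3, which fell in G37R motor neurons, was 4.65 times the motor neuron level in astrocytes and 0.0862 times in 8-month oligodendrocytes. Gclm, which also fell, was at 0.520 and 0.567 times. Of the genes that rose, Hmox1 was 4.10 times the motor neuron level in astrocytes and 1.73 times in 8-month oligodendrocytes, and G6pdx 2.89 and 3.07 times. Endothelial and perivascular macrophage markers summed to at most 2.33 and 0.692 in any motor neuron library. The part of the other cells in the results was not tested.

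Oligodendrocytes at 8 months showed no difference past the threshold in any of the 10 genes, and none at an unadjusted p under 0.05 by limma, beside 0.109% of the 11932 genes called. Mt1 had 779, 607, 815 and 494 in G37R, against 1101, 631, 910, 779 and 684 in control libraries (-0.28, 95% interval -0.71 to 0.14, adjusted p = 0.63). Mt2 averaged 129 ± 34.9 in G37R (n = 4) and 131 ± 37.5 in controls (n = 5), with a 95% interval of -0.59 to 0.53 for the log2 difference. Hmox1 was 8.32 ± 0.286 in G37R and 7.81 ± 0.676 in controls, and the interval of its log2 difference ran from -0.07 to 0.24. All 10 genes had overlapping groups. Microglial markers overlapped too, at 42.1 to 59.7 in G37R and 37.3 to 64.1 in controls.

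At 11 months, 4 of the 10 genes rose in G37R oligodendrocytes, beside 26.1% of the 11731 genes called higher and 49% called in either direction, so the count lies near the background. Hmox1 had 12.1, 12.4 and 14.9 in G37R, against 6.09, 6.59, 7.46, 6.87 and 7.58 in controls (0.84, SE 0.25, adjusted p = 0.0183). Txnrd1 had 45.7, 57.9 and 54.4 in G37R, against 34.2, 36.99, 38.8, 43.3 and 43.5 in controls (0.41, SE 0.12, adjusted p = 0.0188). G6pdx had 71.8, 79.0 and 87.0 in G37R, against 63.3, 62.1, 68.1, 64.0 and 65.2 in controls (0.29, SE 0.08, adjusted p = 0.0167). In these genes, and in Mt2, each G37R library lay above every control, beside 24% of all genes. Microglial markers summed to 139 to 304 in G37R and 45.6 to 72.3 in control oligodendrocytes, and 8 of the 12 tested rose. Oligodendrocyte markers summed to 22063 to 29761 in G37R, against 36083 to 39703 in controls 2 to 5 and 17089 in control 1, and 4 of the 9 fell. Astrocyte markers summed to 4975 to 5393 in G37R and 4187 to 4548 in controls, motor neuron markers to 84.0 to 113 in G37R and 56.7 to 71.7 in controls, and interneuron markers to 310 to 412 in G37R and 192 to 266 in controls, each without overlap. The part of these markers in the results was not tested.

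Mt1 and Mt2 parted in these cells. Mt2 had 344, 251 and 274 in G37R oligodendrocytes, against 231, 183, 148, 185 and 164 in controls, and rose (0.67, SE 0.23, adjusted p = 0.0347). Mt1 had 1308, 667 and 729 in G37R, against 1432, 1068, 823, 1059 and 1107 in controls, where the groups overlapped (-0.33, 95% interval -0.86 to 0.20, adjusted p = 0.269). The highest Mt1 value of each genotype came from a male library. Restricted to the female libraries, an alternative chosen after seeing the data, Mt1 was lower in G37R (-0.50, adjusted p = 0.0101) and Mt2 higher (0.67, adjusted p = 0.00117), with 2 G37R and 3 control libraries left. The call of Mt2 was lost without any 1 of the 3 G37R libraries or of controls 2, 3 and 5 (adjusted p 0.0595 to 0.105), with no minimum level (0.0522) and with median-of-ratios scaling (0.0553). Hmox1, Txnrd1 and G6pdx each lost the call without G37R library 2 or 3 (adjusted p 0.0541 to 0.0915).

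The G85R oligodendrocytes share their 5 control libraries with the G37R comparison. Hmox1 had 21.7, 7.75 and 8.91 in G85R, all above the highest control at 7.58, with a log2 difference of 0.67 (SE 0.25, adjusted p = 0.115). The high value is that of library 1, and without it the difference was 0.24 (adjusted p = 0.378). Mt2 had 342, 155 and 180 in G85R (0.24, adjusted p = 0.475), Mt1 had 1022, 718 and 632 (-0.48, 95% interval -1.02 to 0.05, adjusted p = 0.185), and Txnrd1 had 55.8, 40.8 and 43.3 (0.23, adjusted p = 0.199). Library 1 was the highest G85R library in each of these 4 genes, and besides the microglial sum it had the highest astrocyte marker sum of its group, 5397 against 4316 and 4481. None of the 10 genes was called, beside 0.00852% of all genes, and 2 were higher without overlap, beside 12.1%. Hmox1 was the single one of them at an unadjusted p under 0.05.

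Set directly against each other, G85R and G37R oligodendrocytes differed past the threshold in none of the 10 genes, beside 0.0426% of genes, and none had an unadjusted p under 0.05. The 95% interval of the G85R minus G37R difference ran from -0.78 to 0.44 for Hmox1 and from -1.01 to 0.14 for Mt2. Without G85R library 1 the Hmox1 difference was -0.60 (adjusted p = 0.0317), and among female libraries alone 4 genes were lower in G85R, Hmox1 (-0.65, adjusted p = 0.00588), Mt2 (-0.65, 0.00705), Txnrd1 (-0.41, 0.0113) and G6pdx (-0.26, 0.0362), by limma with 2 libraries a group. Microglial markers summed to 55.3 to 528 in G85R oligodendrocytes, and the order of libraries by Hmox1 within each mutant followed that sum. The part of microglia in the result was not tested.

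Spinal cord at 11 months gave no call among the 10 genes and none at an unadjusted p under 0.05, beside 0.0217% of the 13839 genes tested. Hmox1 had 12.6, 6.78 and 14.7 in G37R, against 16.4, 6.26 and 7.25 in controls. Mt1 had 2034, 1493 and 2090 in G37R, against 2163, 1248 and 1072 in controls, and Mt2 had 1454, 1053 and 1244 in G37R, against 1480, 719 and 679 in controls. In all 3 genes control 1 was the highest of the 6 libraries, and it is the control with the high microglial sum. It also had the highest astrocyte marker sum of the 6, at 5297, against 3475 and 3376 in the other controls and 3737 to 5032 in G37R libraries. Without it, Hmox1 differed by 0.61 (adjusted p = 0.701), Mt1 by 0.68 (0.653) and Mt2 by 0.83 (0.410), against 0.22, 0.38 and 0.47 with it. Gclc was the 1 gene lower without overlap, at 24.8, 24.3 and 24.4 in G37R and 25.9, 25.5 and 26.4 in controls, beside 7.73% of genes. Sexes are split 1 male to 2 female in both groups.

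**Figure D4:**
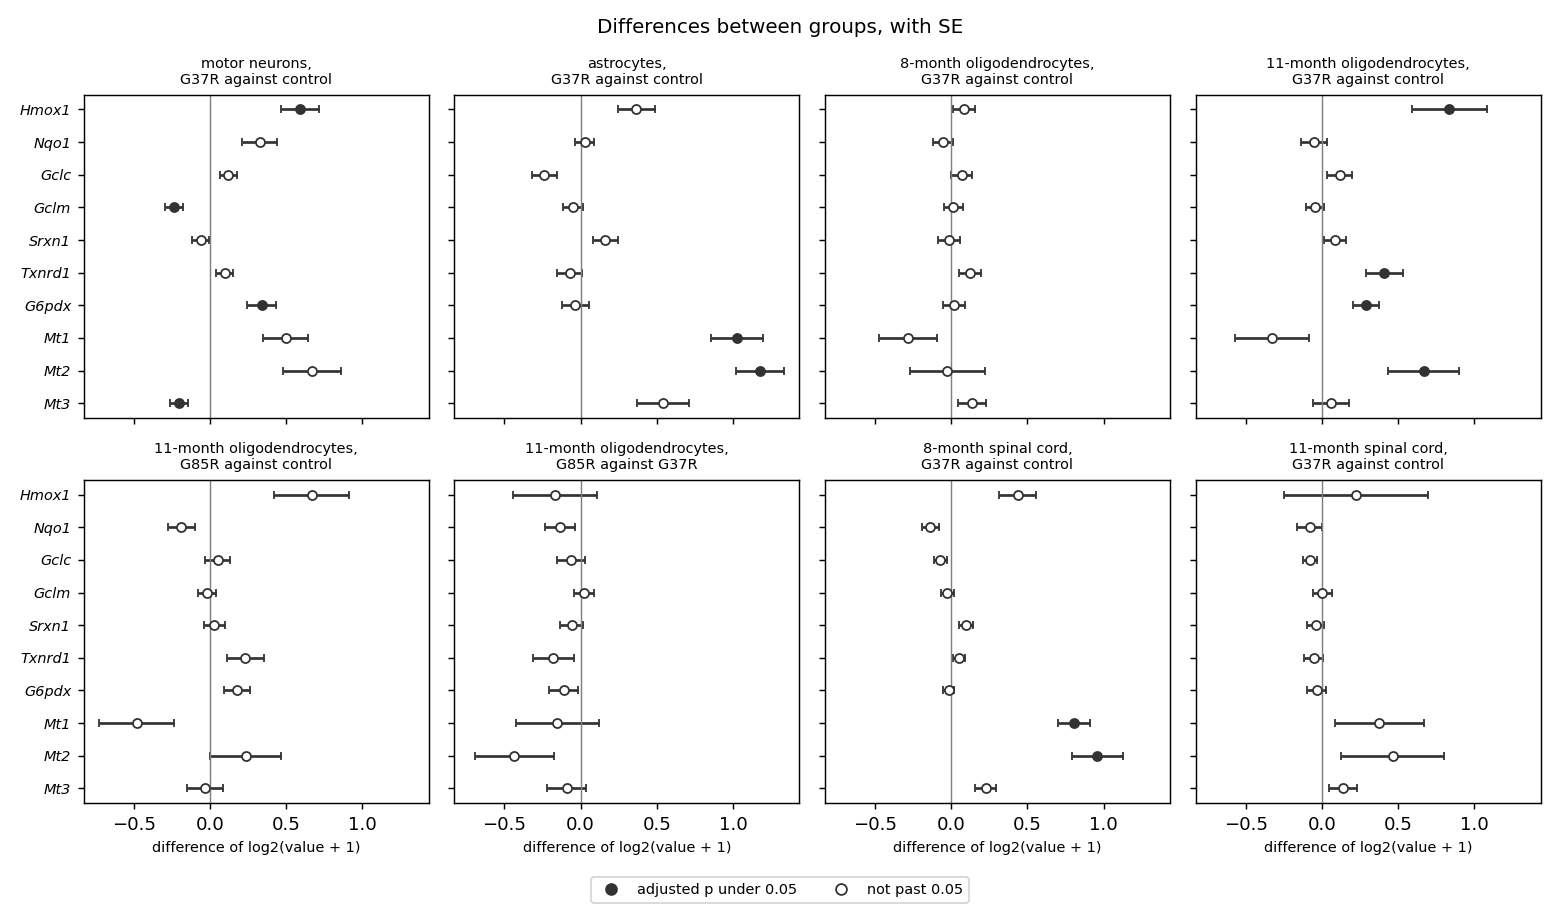
Differences of log2(value + 1) with their SE for the 10 genes in the 8 comparisons, mutant minus control, or G85R minus G37R, with filled points past an adjusted p of 0.05. Mt1 and Mt2 are filled in astrocytes and 8-month spinal cord, Hmox1 and G6pdx in motor neurons and 11-month G37R oligodendrocytes, and none in 4 of the 8 panels.

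Hmox1 varied with microglial markers from library to library, in part through the 2 libraries that stood apart. After each group mean was removed, the 3 genes out of 10807 most like Hmox1 over the 52 libraries were Plek (r = 0.86), Aif1 (r = 0.86) and Tyrobp (r = 0.85), of which Aif1 and Tyrobp were on the microglial marker list. Over all 13 microglial markers, 5 of which had a mean under 1 in some table, r with Hmox1 ran from 0.38 (P2ry12) to 0.86, with a median of 0.76, and over the other 6 NRF2 targets from 0.10 (Gclc) to 0.51 (Txnrd1), with a median of 0.30. Without G85R oligodendrocyte library 1 and 11-month control spinal cord library 1, left out after seeing the data, the 13 markers ran from 0.04 (Tmem119) to 0.68 (Aif1), with a median of 0.51, and the 6 targets from 0.10 (Gclm) to 0.45 (G6pdx), with a median of 0.28, so the ranges overlapped over the 50 libraries. In the 11-month spinal cord, the libraries ordered by Hmox1 gave 14.7, 12.6 and 6.78 in G37R with microglial sums of 1873, 1389 and 674, and 16.4, 7.25 and 6.26 in controls with sums of 2219, 606 and 678. G85R oligodendrocytes at 21.7, 8.91 and 7.75 had sums of 528, 85.9 and 55.3. Level for level the relation was not the same in all cells, since control astrocytes had 14.4 to 21.4 of Hmox1 at microglial sums of 44.8 to 72.4, and 8-month control oligodendrocytes 7.14 to 8.90 at sums of 37.3 to 64.1. Libraries of a table were normalized together, and these correlations are descriptions.

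**Figure D5:**
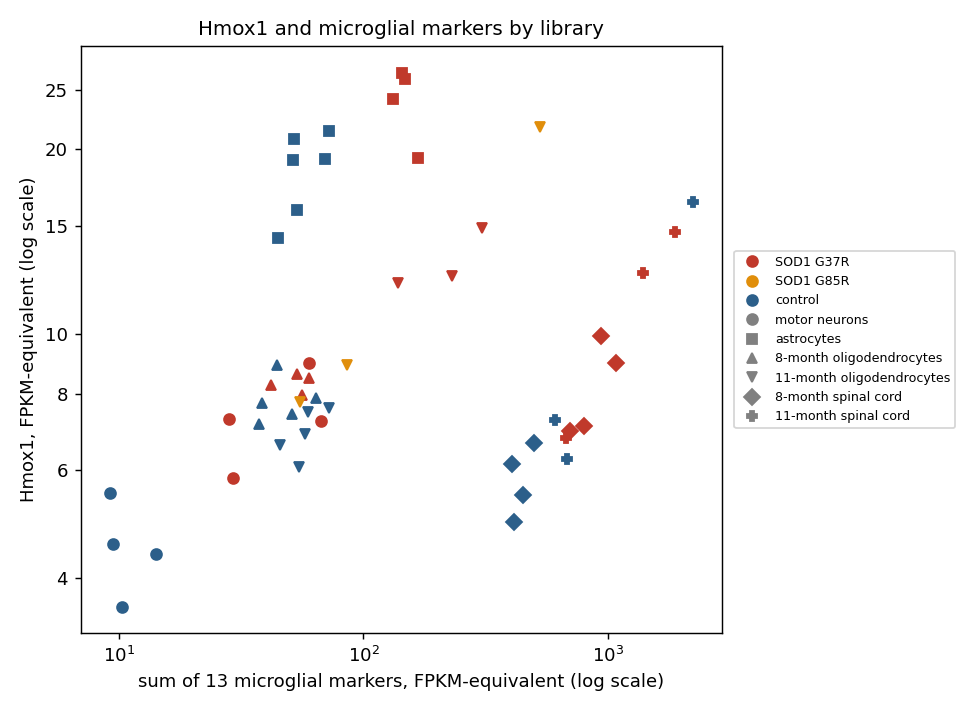
Hmox1 against the sum of 13 microglial markers, both in FPKM-equivalents on log axes, 1 point per library, with colour for genotype and symbol for table. Control spinal cord library 1 at 11 months (2219, 16.4) and G85R oligodendrocyte library 1 (528, 21.7) are the highest of their groups on both axes.

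Mt1 and Mt2 moved together from library to library, with r = 0.91 after group means were removed and 0.95 over the 13 group means, while Mt3 went with Mt1 at 0.61 and with Mt2 at 0.49. Outside the family, the genes most like Mt2 by residuals were Cebpd (r = 0.71), Gadd45g (0.67) and Pdk4 (0.63), and those most like Mt1 were Tsc22d4 (0.73), Irf2bp2 (0.68) and Nnat (0.67). Pdk4 was on the list of glucocorticoid-induced genes. Over group means, Mt2 was most like Gatsl3 (0.99) and Mt1 most like Ccng1 (0.98).

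Whether the G37R effect itself differed between cell types was tested as a difference of the effects. For Mt1 it was higher in astrocytes than in 8-month oligodendrocytes by 1.31 on the log2 scale (SE 0.25, adjusted p = 0.0184), and for Mt2 by 1.20 (SE 0.27, adjusted p = 0.0520), just short of the threshold. Without G37R oligodendrocyte library 2 or 4 the Mt1 difference gave 0.0602 and 0.0593. For Mt3 the effect was lower in motor neurons than in astrocytes by 0.75 (-0.75, SE 0.19, adjusted p = 0.0424), and this call was lost without any 1 of 13 of the 18 libraries. These 2 were the only calls among the 10 genes in the 5 such contrasts, in which 2.83% of genes differed between motor neurons and astrocytes, 1.2% between motor neurons and 8-month oligodendrocytes, 0.489% between astrocytes and 8-month oligodendrocytes, 14.3% between 11-month and 8-month oligodendrocytes and 0% between 11-month and 8-month spinal cord, where 871 of 13589 genes had an unadjusted p under 0.05 by limma. Hmox1 differed by 0.75 between the 11-month and 8-month oligodendrocyte effects (SE 0.27, adjusted p = 0.0611), so a difference between the ages was not shown. The 8-month libraries were all male and the 11-month ones of both sexes. Age, stage, sex and table therefore cannot be told apart in this contrast.

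The regulators around NRF2 were read from a list of 9 genes, all tested in every table. This list and those below were chosen with earlier results of these data known. Their counts beside the share of all genes are thus descriptions and not independent evidence. In motor neurons Nfe2l2, which encodes NRF2, rose to 3.46 ± 1.25 in G37R, against 1.63 ± 0.192 in controls (0.72, adjusted p = 0.0353), and the small MAF gene Mafg fell (-0.37, adjusted p = 0.0294), so 2 of the 9 were called beside 12.9% of all genes. This Nfe2l2 level lay far below that of astrocytes, given next. Astrocyte markers summed to 850 to 1524 in G37R and 598 to 729 in control motor neurons. Microglial markers summed to 28.3 to 66.8 in G37R and 9.17 to 14.1 in control motor neurons. The part of other cells in the Nfe2l2 difference was not tested. In astrocytes Nfe2l2 was 53.3 ± 6.51 in G37R and 52.4 ± 3.54 in controls, while the small MAF genes Maff (1.49, adjusted p = 0.000129) and Mafk (0.63, adjusted p = 0.0133) rose, 2 of 9 beside 2.33% of genes. In 11-month G37R oligodendrocytes Keap1 (0.27, adjusted p = 0.00952) and Sqstm1, an autophagy receptor that binds KEAP1 (0.43, adjusted p = 0.0350), rose, and Mafg (-0.43, 0.0132) and the ubiquitin ligase subunit Rbx1 (-0.45, 0.0395) fell. Those 4 of 9 lie near the background, since 49% of all genes were called there. No regulator was called by limma in 8-month oligodendrocytes, in G85R oligodendrocytes or in spinal cord of either age, where 1 or 2 of the 9 had an unadjusted p under 0.05.

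In 11-month G37R oligodendrocytes 7 of 11 other detoxification targets of NRF2 tested rose and 1 fell. Of all genes there 26.1% were called higher and 49% in either direction. The median log2 change of these targets was 0.44, against 0.00 for all genes. The called targets included the aldo-keto reductase Akr1b8 (1.15, adjusted p = 0.00257), the carbonyl reductases Cbr3 (0.94, 0.00347) and Cbr1 (0.48, 0.00117), and Ephx1, an epoxide hydrolase, which fell (-0.28, 0.0380). In motor neurons Akr1b8 (0.54, adjusted p = 0.0275) and the aldehyde dehydrogenase Aldh3a2 (0.28, 0.0248) rose, 2 of 12 tested beside 12.9% of genes. None was called by limma in astrocytes or spinal cord, where 0 to 2 had an unadjusted p under 0.05. Of 18 genes of glutathione synthesis and use tested in motor neurons, 3 rose and 3 fell, again beside 12.9% of genes called. Gss, glutathione synthetase (0.39, adjusted p = 0.0192), rose there beside the fall of Gclm, whereas the glutathione peroxidases Gpx4 (-0.23, 0.0240) and Gpx1 (-0.24, 0.0495) fell. Gpx1 rose in astrocytes (0.67, 0.0187) and in 8-month spinal cord (0.28, 0.0126), where 2.33% and 2.17% of all genes were called. Pgd, the next NADPH-forming enzyme of the pentose phosphate pathway after G6pdx, rose with it in motor neurons (0.30, adjusted p = 0.0365) and in 11-month G37R oligodendrocytes (0.47, 0.00191). The share of all genes called in either direction was 12.9% in the former and 49% in the latter.

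Of 18 zinc and copper handling genes tested in astrocytes none was called by limma, beside 2.33% of all genes, and 5 had an unadjusted p under 0.05. In astrocytes Mtf1, the metal-sensing factor of Mt1 and Mt2, was 4.80 ± 0.883 in G37R and 5.76 ± 0.564 in controls, and the zinc exporter Slc30a1, another MTF1 target, was 3.13 ± 0.582 in G37R and 3.95 ± 0.942 in controls. Both genes were named after their values were seen, and they do not stand for the list. What lay behind the rise of Mt1 and Mt2 in astrocytes, metals and glucocorticoids included, was not tested. In 8-month spinal cord the zinc importers Slc39a1 (0.30, adjusted p = 0.0279) and Slc39a14 (0.32, 0.0409) rose, 2 of 20 tested beside 2.17% of genes. Glucocorticoid-induced genes had a median log2 change of 0.78 in astrocytes, against -0.00 for all genes, with 4 of 10 called, beside 2.33% of genes, and all 10 above 0. Fkbp5, a chaperone of the glucocorticoid receptor, had 57.0 ± 28.1 in G37R and 9.03 ± 4.42 in control astrocytes (2.46, adjusted p = 0.0283), and the kinase Sgk1 had 74.3 ± 23.5 in G37R and 30.0 ± 10.02 in controls (1.29, 0.0256). The same list had medians of 0.55 in 8-month spinal cord, 0.41 in 11-month spinal cord and 0.19 in motor neurons, and of -0.17 in 8-month oligodendrocytes, -0.36 in 11-month G37R oligodendrocytes and -0.39 in G85R oligodendrocytes. None of its genes was called by limma in these 6 comparisons, where 0 to 5 of the 10 had an unadjusted p under 0.05. The G37R and G85R oligodendrocyte values at 11 months share the same controls. The 15 tested genes of the PERK and ATF4 response, a stress pathway that shares some targets with NRF2, had 13 rises in motor neurons, with a median of 0.50. In astrocytes they had 4 rises, with a median of 0.24. These rises stand beside 12.9% and 2.33% of all genes called in either direction. Since the lists were chosen with earlier results known, these counts and those of the glucocorticoid list are descriptions only.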

How the data were processed

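Expression values of 52 libraries in 13 groups were read from 6 deposited tables of 23697 genes, 1 per cell type or tissue and age. Cufflinks, Cuffdiff and TopHat2 (version 2.0.8b) are listed with build mm9 in the submitters' processing notes, which were given here without roles. Values in the 11-month spinal cord table are FPKM as the authors deposited them. In the other 5 tables the authors deposited normalized signal values under the name FPKM, which were 16806.6 times the FPKM scale by the median ratio of 8-month over 11-month control spinal cord (13717 genes, quartiles 14974.5 and 18723.3). These values were divided by that factor into FPKM-equivalents, which is an assumption for the purified cells, and the planned FPKM tests were run on them. From 1000000 upwards, the 8-month oligodendrocyte table holds 3 significant digits. Absolute depth is unknown, so no counting error can be given, and 75th percentiles lay within 19.9 to 24.8 in all libraries.

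Differences of log2(value + 1) were tested with limma 3.58.1 in R 4.3.3 (trend, robust, 2-sided) over genes with a mean of at least 1 in the table, with Benjamini-Hochberg adjustment over all genes tested and a threshold of 0.05. The fold changes understate changes of low genes. The 3 groups of 11-month oligodendrocytes were fitted together, and effects were compared between tables as contrasts in joint fits of 2 tables. The procedure was tested on simulated data with known changes. Noise there was independent for each gene and library, so deviations shared by genes and RNA of other cells were not covered. Alternatives were other pseudocounts, level filters, scaling, array weights, a replicate block, sex as a term and leaving out libraries. Of 199 distinct symbols on the pathway and marker lists 197 matched. Members and lists were chosen with earlier results of these data known, and the rule for other named genes took the 3 genes most correlated with each member and at most 8 list genes past the threshold per list and comparison. Mtf1, Slc30a1 and Nfe2l2 in astrocytes fall outside it and were named after their values were seen. Hmox1 and Gclc had no entry in the promoter table.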

Additional observations from a re-analysis of the deposited data

Results flagged for a closer look

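In 3 of the 90 pairs of a gene and a group of 4 to 10 libraries, 1 library stood far from the others by Dixon's ratio at its 95% critical value, where chance gives about 1 pair in 20. Gclc was 26.6 FPKM-equivalents in 8-month G37R oligodendrocyte library 3 (ratio 0.869). Txnrd1 was 87.3 in control motor neuron library 4 (ratio 0.889) and Mt3 was 1040 in control spinal cord library 4 at 8 months (ratio 0.887). Of the tested differences between G37R effects, 2 passed the threshold. The Mt3 effect in motor neurons minus that in astrocytes was -0.75 on the log2 scale (limma adjusted p = 0.0424), and the Mt1 effect in astrocytes minus that in 8-month oligodendrocytes was 1.31 (adjusted p = 0.0184).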

How the results depend on the processing

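No direction of a called result reversed under the alternatives run. Counts are of genes called by limma, and of the 10 genes where named. Mt1 and Mt2 in astrocytes stayed past the threshold in 16 of 17 settings each, and Mt1 in 8-month spinal cord in 15 of 15.

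With no minimum level, calls went to 1026 genes and 1 of the 10 in motor neurons (1584 and 4 in the report), 0 for G85R against control (1), 109 for astrocytes minus 8-month oligodendrocytes (56) and 2 for 11-month minus 8-month spinal cord (0), with more genes tested. At a minimum mean of 5 they were 6 in 8-month oligodendrocytes (13), 135 in 8-month spinal cord (300), 159 and 0 of the 10 for motor neurons minus astrocytes (322 and 1), 34 for motor neurons minus 8-month oligodendrocytes (136) and 30 for astrocytes minus 8-month oligodendrocytes. Array quality weights gave 520 in astrocytes (291), 25 in 8-month oligodendrocytes, 8886 in 11-month G37R oligodendrocytes (5749), 96 for G85R against control, 3714 and 4 of the 10 for G85R against G37R (5 and 0), 1094 and 2 of the 10 for motor neurons minus astrocytes, 405 for motor neurons and 267 with 2 of the 10 for astrocytes minus 8-month oligodendrocytes, and 6298 and 3 of the 10 for 11-month minus 8-month oligodendrocytes (1650 and 0). A pseudocount of 5 gave 0 for G85R against control, 1 in 11-month spinal cord (3) and 2 of the 10 for astrocytes minus 8-month oligodendrocytes, as did median-of-ratios scaling for the last. A pseudocount of 0.1 gave 1 for 11-month minus 8-month spinal cord, and sex as a term gave 0 for G85R against control. The causes were not tested.

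Same-numbered libraries did not deviate together (r from -0.27 to 0.35, in no comparison over 0.1 in every pair, and not every sample correlated best with its own number), so the labels' replicate numbers were not taken to pair libraries. With the replicate block, calls were 810 and 1 of the 10 in motor neurons, 49 and 0 of the 10 in astrocytes (Mt1 adjusted p = 0.0884, Mt2 0.0602), 7 in 8-month oligodendrocytes, 2 of the 10 in 11-month G37R oligodendrocytes, 0 for G85R against control, 2 for G85R against G37R, 91 in 8-month spinal cord, 47 and 0 of the 10 for motor neurons minus astrocytes, 63 for motor neurons and 31 with 2 of the 10 for astrocytes minus 8-month oligodendrocytes, and 441 for 11-month minus 8-month oligodendrocytes.

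Chosen after seeing the data, leaving out G37R 3 and 4 together gave 261 and 0 of the 10 in motor neurons, and female libraries alone gave 4032 and 4 of the 10 for G85R against G37R and 13 in 11-month spinal cord. Leaving out 1 library at a time gave 274 to 2136 genes and 0 to 4 of the 10 in motor neurons, 138 to 325 in astrocytes, 7 to 17 in 8-month oligodendrocytes, 2805 to 6548 and 0 to 5 of the 10 in 11-month G37R oligodendrocytes, 0 to 2 for G85R against control, 2 to 315 and 0 to 1 of the 10 for G85R against G37R, 80 to 482 and 1 to 2 of the 10 in 8-month spinal cord, and 4 to 10 in 11-month spinal cord. For the differences of effects it gave 108 to 1590 and 0 to 2 of the 10 for motor neurons minus astrocytes, 22 to 319 and 0 to 1 for motor neurons minus 8-month oligodendrocytes, 21 to 626 and 0 to 2 for astrocytes minus 8-month oligodendrocytes, 326 to 3303 and 0 to 2 for 11-month minus 8-month oligodendrocytes, and 0 to 1 genes for spinal cord.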

Other observations

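The ratio of Mt2 to Mt1 was higher on average in mutant than in control libraries of every table, and it is given as a description with no test. It averaged 0.593 in G37R and 0.525 in control motor neurons, 0.665 in G37R and 0.598 in control astrocytes, 0.190 in G37R and 0.159 in control 8-month oligodendrocytes, 0.601 in G37R and 0.541 in control 8-month spinal cord, and 0.672 in G37R and 0.631 in control 11-month spinal cord. The groups stood farthest apart in 11-month oligodendrocytes, at 0.217 to 0.335 in G85R, 0.263 to 0.376 in G37R and 0.148 to 0.179 in the controls that both share. Oligodendrocytes at 8 months also had no overlap, at 0.173 to 0.205 in G37R and 0.146 to 0.172 in controls.

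Some NRF2 targets varied from library to library with genes outside the pathway lists. After group means were removed, over 52 libraries and 10807 genes, G6pdx was most like Wdr1 (r = 0.84), Gclc most like Ints6 (0.81) and Nqo1 most like Hadh, a mitochondrial fatty acid oxidation enzyme (0.79). Txnrd1 went with Gdi2 (0.78), Srxn1 with Sepx1, a methionine sulfoxide reductase (0.73), and Gclm with Zbtb2 (0.61). Mt3 was most like Hint1 (0.84). Libraries of a table were normalized together, and these values are descriptions.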
